A study of Mus musculus with 24 samples.

Results

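Interferon-stimulated genes are the genes that cells switch on when an interferon reaches them. Type I interferons act through the receptor pair Ifnar1 and Ifnar2, whose kinases switch on a transcription complex with Stat2 and Irf9 among its parts, and this complex binds the interferon-stimulated response element in promoters. Interferon gamma acts through Ifngr1 and Ifngr2 and a different promoter site, the gamma-activated sequence, and it is the main inducer of the guanylate-binding proteins and the immunity-related GTPases. In fat tissue the response is known from adipocytes as well as from resident macrophages. The 42 genes described here were taken by symbol from a list of interferon-stimulated genes that was chosen with earlier results of these data known. All 42 were found among the 35275 genes of the deposited expression table.

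The study sequenced RNA of the gonadal and the inguinal white fat pad of mice with a conditional adipose knockout of FoxO1 and of floxed FoxO1 mice, to find what FoxO1, a transcription factor that insulin signalling holds out of the nucleus, regulates. The knockout group held mice M5, M9 and M12 (genotype FoxO1 knockout), and the control group held mice M6, M7 and M10 (genotype floxed FoxO1), with 2 libraries from each pad of each mouse. The genotype, the pad and the animal of a library were read from its name, in which the pad letter was taken to stand for epididymal (gonadal) or subcutaneous (inguinal). Not given in the sources used here are the promoter that drives the recombinase, the exons it removes, and the age, sex, strain and diet of the mice. Repeat libraries were averaged, so each group has n = 3 mice, and values are listed below in the order M5, M9, M12 for knockout mice and M6, M7, M10 for control mice. FPKM is a read count scaled by gene length and by library depth, so it can be compared between genes. Whether the mice were littermates or housed together is not given, and the p-values measure the spread between these mice only.

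Between 14953657 and 25438811 reads were assigned to genes in each of the 24 libraries, as inferred from the deposited read counts and FPKM. Libraries of the same pad correlated at r = 0.991 to 0.996 over all genes (12 pairs), and the 2 libraries of a pad differed by a median of 0.0539 to 0.145 on the log2 scale over the 42 genes. None of the 6 adipocyte marker genes, such as Adipoq, was at 0 in any pad. Some pads stood apart by transcripts of other tissues. The 8 genes of the epididymis summed to 4684 FPKM in the gonadal pad of knockout mouse M12. They summed to 443 and 2728 FPKM in those of control mice M6 and M10, against 0.102 to 1.05 FPKM in the gonadal pads of M5, M9 and M7. In M6 nearly all of the sum was Crisp1, at 442 FPKM, and 4 of the 8 genes were at 0. In M12 and M10 none of the 8 was at 0. B cell genes summed to 167 to 273 FPKM in the inguinal pads of M5, M12, M6 and M10 and to 3.8 and 3.27 FPKM in those of M9 and M7. In gonadal fat the B cell genes summed to 118.5 FPKM in M6, the highest pad for each of the 5, and to 51.3 to 76.05 FPKM in the others. T and NK cell genes (8 genes) summed to 28.8 FPKM in the gonadal pad of M6 and to 11.5 to 22.2 FPKM in the other gonadal pads. Skeletal muscle genes (6 genes) summed to 85.9, 293.5 and 6.88 FPKM in the inguinal pads of M5, M9 and M12. In those of M6, M7 and M10 they summed to 658.5, 598.5 and 84.7 FPKM. The comparisons that use the gonadal pads with epididymal transcripts or the inguinal pads with B cell transcripts are given below with and without them. The gonadal comparison is also given without M6, and the part of the lymphocyte transcripts in that pad was not tested. No pads were left out for muscle transcripts, and their part in the result was not tested.

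Foxo1, the targeted gene (chr3:52268337-52350109, plus strand, build mm10, as all gene coordinates here), was measured at 4.07, 4.46 and 4.01 FPKM in knockout gonadal pads, against 13.6, 7.87 and 9.53 FPKM in control pads. In inguinal fat it was at 4.12, 2.49 and 5.69 FPKM in the knockouts, against 19.7, 13.02 and 14.5 FPKM in the controls. Every knockout pad lay below every control pad of the same depot. The log2 fold change was -1.18 (SE 0.19) in the gonadal pad and -1.86 (SE 0.29) in the inguinal pad, with an exact 2-sided permutation p of 0.1 in each, the smallest that 3 mice against 3 can give. Adjusted over all genes, the limma p of Foxo1 was 0.407 in the gonadal pad and 0.129 in the inguinal pad.

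In both pads nearly every interferon-stimulated gene had a lower mean level in knockout than in control mice, and no single one passed the test across all genes. In gonadal fat all 42 of 42 genes had a log2 fold change below 0, against 55.8% of all 14851 genes tested. Their median log2 fold change was -0.59, against -0.025 over all genes, and the values ranged from -1.56 (SE 0.44) for Isg15 to -0.21 (SE 0.17) for Dtx3l. In inguinal fat 41 of 42 had a log2 fold change below 0, against 70.6% of all 13621 genes tested. Here the median was -0.47, against -0.100 over all genes, and the values ranged from -1.32 (SE 0.46) for Isg15 to 0.00 (SE 0.19) for Dtx3l. All knockout values lay below all control values for 26 of 42 genes in gonadal fat, against 7.54% of all genes, and for 12 of 42 in inguinal fat, against 17.3% of all genes. With each pad centred on its median gene, 39 of 42 inguinal fold changes were below 0 at a median of -0.349, and the median of all genes was 0.018. The genes were chosen with earlier results of these data known. They also followed their mean closely over the pads (median r = 0.947 after subtraction of each depot's mean), so these are not 42 independent observations. These are bulk pads, so fewer cells of a responding type and less RNA per cell cannot be told apart.

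By limma on log2(FPKM + 0.5), with Benjamini-Hochberg adjustment over all genes, 0 of the 42 genes were called at an adjusted p under 0.05 in gonadal fat (0% of all genes called) and 0 in inguinal fat (0.022% of all genes called). At an unadjusted p under 0.05, 16 of the 42 were lower in gonadal fat, against 4.3% of all genes, and 8 in inguinal fat, against 11.6% of all genes. With edgeR on rebuilt read counts the count was 0 in each pad. DESeq2 called 2 of 42 lower in gonadal fat (Isg15 and Rsad2, with 0.72% of all genes called lower) and 5 in inguinal fat (Isg15, Rsad2, Ifitm3, Gbp7 and Ifi27l2a, with 3.13% of all genes called lower). A fit with each library as a replicate called 14 lower in gonadal fat (3.74% of all genes) and 11 in inguinal fat (12.5% of all genes), but it counts the repeat libraries of a mouse as separate animals. The authors' deposited table lists 34 of the 42 as lower in gonadal fat, where it lists 5.27% of the genes tested here as lower. In inguinal fat it lists 15 as lower, where it lists 8.12%, and it lists none as higher. It draws on the same libraries, with 6 columns per group, 2 from each mouse. Whether its test took the repeat libraries as separate animals is not stated in the sources used here. In the authors' deposited table Rsad2 has a log2 fold change of -1.25 in gonadal and -1.07 in inguinal fat, and Isg15 has -1.22 in gonadal and -1.01 in inguinal fat.

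**Figure D1:**
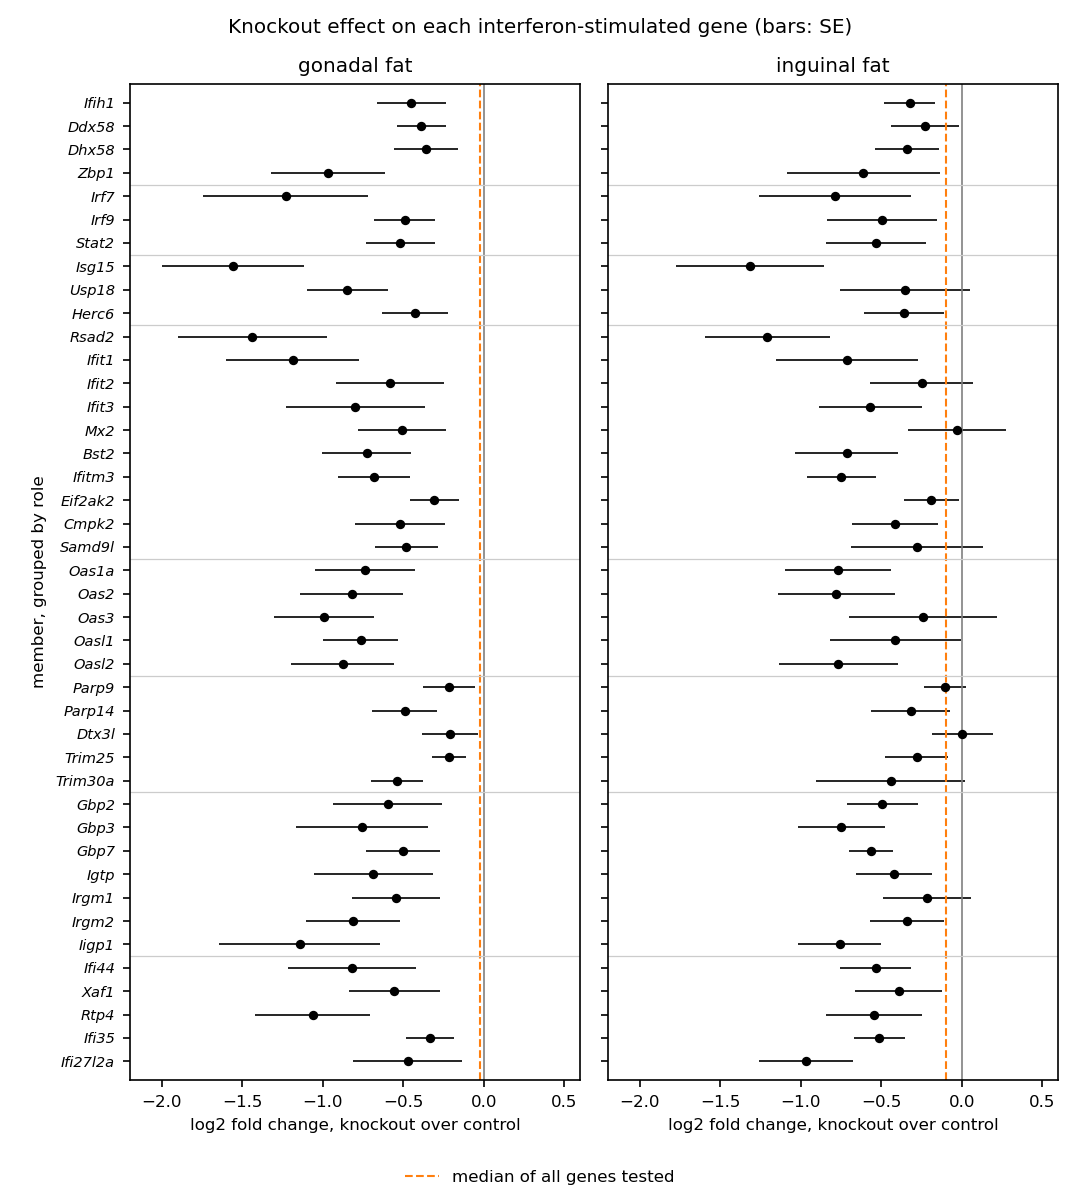
Log2 fold change (knockout over control, x axis, bars: SE of limma, n = 3 mice per group) of each of the 42 genes, grouped by role (y axis), in gonadal (left) and inguinal fat (right). The orange line marks the median of all genes tested, -0.025 in gonadal and -0.100 in inguinal fat, and all gonadal points and 41 of 42 inguinal points lie left of 0.

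Control mouse M6 stood above the other mice for these genes. It had the highest value of the 6 gonadal pads for 41 of 42 genes, whereas it was highest for 21.3% of all genes tested. The exception was Trim25, highest in control mouse M7. In inguinal fat M6 was again highest for 41 of 42 genes, where it was highest for 46.8% of all genes, and the exception was Mx2, highest in knockout mouse M12. On the log2 scale M6 stood above the mean of M7 and M10 by a median of 0.86 over the 42 genes in gonadal fat and 0.74 in inguinal fat, most for Irf7 in both pads. At the low end, knockout mouse M12 was lowest for 30 of 42 genes in gonadal fat, where M12 was lowest for 21.1% of all genes, and knockout mouse M9 for 35 of 42 in inguinal fat, where M9 was lowest for 35.2% of all genes.

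Without M6, the median log2 fold change was -0.29 in gonadal fat, with 41 of 41 genes tested below 0 against 54% of all genes. In inguinal fat without M6 it was -0.23, with 36 of 41 below 0 against 60.1% of all genes. Without knockout mouse M9 the inguinal median was -0.252, against -0.049 over all genes, with 39 of 42 members below 0. All 3 knockout mice lay below both M7 and M10 for 27 of 42 genes in gonadal fat, against 13.1% of all genes, and for 12 of 42 in inguinal fat, against 20.9% of all genes. In the pads without epididymal transcripts, M5 and M9 against M7, the gonadal median was -0.175 and 37 of 41 genes were below 0, against 50.4% of all genes. That comparison also lacks M6, whose epididymal sum was nearly all Crisp1. This split and the next were chosen after seeing the data. In the inguinal pads with B cell transcripts, M5 and M12 against M6 and M10, the median was -0.42 and 41 of 42 were below 0, against 71.4% of all genes. In those without, M9 against M7, it was -0.45 and 39 of 40 were below 0, against 62.4% of all genes, with 1 mouse a group and no test.

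**Figure D2:**
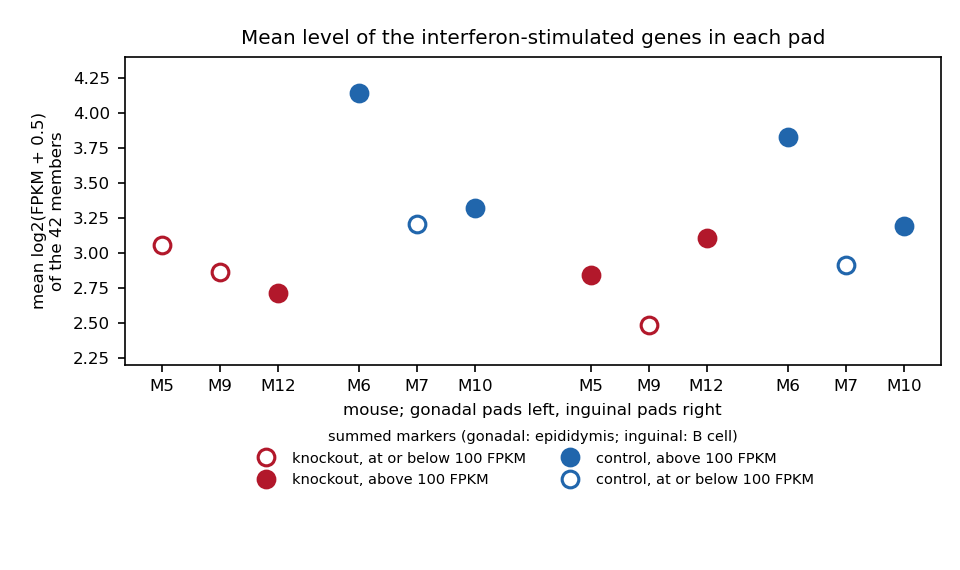
Mean log2(FPKM + 0.5) of the 42 genes (y axis) in each of the 12 pads (x axis), knockout mice in red and control mice in blue. Filled circles are pads with more than 100 FPKM of epididymis markers (gonadal) or B cell markers (inguinal). Control mouse M6 is highest in both pads, at 4.145 in gonadal and 3.83 in inguinal fat, and gonadal knockout pads lie between 2.71 and 3.06, below all gonadal control pads.

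Transcripts of other cells also differed between the mice. Red blood cell markers (6 genes, such as Hba-a1) summed to 1611 to 4180 FPKM in the gonadal pads of knockout mice, against 13580 FPKM in M6 and 4222 and 6003 FPKM in M7 and M10. In inguinal fat the same sum was 2297 to 2558 FPKM in knockout mice, against 10520 FPKM in M6 and 3059 and 10040 FPKM in M7 and M10. Macrophage markers (10 genes) summed to 6563 to 11470 FPKM in knockout and 8608 to 13130 FPKM in control gonadal pads, most of it from Lyz2, with the sum of M6 the lowest of the controls. Without Lyz2 the other 9 summed to 1480 to 2320 FPKM in knockout and 2060 to 2640 FPKM in control gonadal pads, with M6 highest, and M6 was the highest gonadal pad for 6 of the 10 genes, such as C1qa. In inguinal fat the 10 summed to 313 to 575 FPKM in knockout and 643 to 1389 FPKM in control pads, without overlap, and M6 was highest for each of the 10. Adipocyte markers (6 genes) summed to 10170 to 15040 FPKM in knockout and 7533 to 8085 FPKM in control gonadal pads, also without overlap. Most of the gonadal sum was Fabp4, and Fabp4, Lpl, Plin1 and Cidec each had separate gonadal groups. Gonadal Adipoq was at 665, 1033 and 780 FPKM in knockout and 942, 601 and 661 FPKM in control mice. Its groups overlapped, as did those of gonadal Lep. The inguinal sums of the adipocyte markers overlapped, at 20620 to 24450 FPKM in knockout and 16900 to 27870 FPKM in control pads. Progenitor and fibroblast markers (5 genes) summed to 121.5 to 149 FPKM in knockout and 200.3 to 239 FPKM in control inguinal pads, without overlap. Most of that sum was Col1a1 and Cd34, which had separate inguinal groups, as had Pdgfra. Inguinal Pi16 (32.1, 14.8 and 13.5 FPKM in knockout, 21.7, 21.0 and 19.4 FPKM in control mice) and Dpp4 overlapped. In gonadal fat the 5 progenitor and fibroblast markers summed to 269 to 439 FPKM in knockout and 424 to 532 FPKM in control pads. Inguinal mesothelium markers (5 genes) summed to 1.07 to 1.65 FPKM in knockout and 2.37 to 3.81 FPKM in control pads, likewise without overlap. Nearly all of that sum was Krt19, at 1.03 to 1.51 FPKM in knockout and 2.25 to 3.61 FPKM in control pads. The other mesothelium genes were at 0.0892 FPKM or less in inguinal fat. In gonadal fat the 5 summed to 177 to 185 FPKM in knockout and 134 to 293 FPKM in control pads, with overlap. Markers of plasmacytoid dendritic cells, strong producers of type I interferon (6 genes), summed to 25.8 to 31.2 FPKM in knockout and 25.0 to 47.4 FPKM in control gonadal pads. In inguinal fat the same sum was 20.9 to 76.7 FPKM in knockout and 20.8 to 85.8 FPKM in control pads, with M6 highest in both. Most of the sum was Ly6d and Tcf4. Inguinal Ly6d was at 34.6, 0.905 and 55.8 FPKM in knockout mice and 59.2, 0.493 and 39.7 FPKM in control mice. It was lowest in M9 and M7, the inguinal pads with few B cell transcripts. At most 1 of these 6 dendritic cell markers was at 0 in a pad (Klk1 or Ccr9). Their defining gene Siglech was above 0 in all 12 pads. Siglech was at 0.683 to 1.59 FPKM in gonadal fat, highest in M10, and at 0.465 to 4.80 FPKM in inguinal fat, highest in M6. The part of these transcripts in the result was not tested.

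The promoters of the 42 genes were read for the 2 interferon motifs named above and for a FoxO site. The members were chosen as interferon-stimulated genes. A high share with the interferon motifs follows from that choice and says nothing about their pattern in these pads. The RefSeq promoter table (build GRCm38.p6, 250 bases before to 50 after each annotated start) matched 32 of the 42; the others are Parp9, Parp14, Rtp4, Ifi27l2a, Oas2, Usp18, Zbp1, Dhx58, Mx2 and Iigp1. The interferon-stimulated response element was searched as TTTC, any 2 bases and TTTC again, the gamma-activated sequence as TTCNNNGAA, and the core of the FoxO binding site as GTAAACA, on both strands. The first was present in 19 of 32 members (59.4%), against 3.94% of 17492 protein-coding genes. The second was in 9 of 32 (28.1%), against 8.92% of protein-coding genes. The FoxO core was in 2 of 32 (6.25%), Gbp3 and Rsad2, against 3.45% of protein-coding genes. Counting only the 250 bases before the start left 15 of 32 members (46.9%) and 3.48% of protein-coding genes with the interferon-stimulated response element. The 150 bases before the start are shown for 6 members, in capitals where a response element (Isg15, Rsad2, Ifit1), or a gamma-activated sequence and a response element (Bst2, Gbp7, Igtp), was matched on either strand. A response element on the opposite strand reads GAAA, any 2 bases and GAAA again. Isg15 lies at chr4:156200819-156200968, minus strand, Rsad2 at chr12:26456453-26456602, minus strand, Ifit1 at chr19:34640739-34640888, plus strand, Bst2 at chr8:71537473-71537622, minus strand, Gbp7 at chr3:142530186-142530335, plus strand and Igtp at chr11:58199406-58199555, plus strand, all printed in the direction of transcription.
Isg15: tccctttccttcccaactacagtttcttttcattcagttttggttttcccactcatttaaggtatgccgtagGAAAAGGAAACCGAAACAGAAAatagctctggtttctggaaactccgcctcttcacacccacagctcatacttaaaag
Rsad2: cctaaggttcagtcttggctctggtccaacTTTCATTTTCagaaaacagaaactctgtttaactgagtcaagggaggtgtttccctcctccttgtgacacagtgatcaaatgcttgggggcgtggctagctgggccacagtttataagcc
Ifit1: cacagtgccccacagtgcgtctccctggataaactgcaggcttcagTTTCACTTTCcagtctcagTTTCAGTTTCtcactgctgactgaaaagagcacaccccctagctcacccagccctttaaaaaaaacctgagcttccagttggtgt
Bst2: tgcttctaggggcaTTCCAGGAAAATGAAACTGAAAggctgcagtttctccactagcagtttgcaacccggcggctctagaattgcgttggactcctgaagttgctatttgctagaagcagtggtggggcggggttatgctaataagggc
Gbp7: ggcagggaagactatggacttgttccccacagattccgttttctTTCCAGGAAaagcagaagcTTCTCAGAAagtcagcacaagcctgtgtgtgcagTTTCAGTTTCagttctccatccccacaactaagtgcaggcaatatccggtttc
Igtp: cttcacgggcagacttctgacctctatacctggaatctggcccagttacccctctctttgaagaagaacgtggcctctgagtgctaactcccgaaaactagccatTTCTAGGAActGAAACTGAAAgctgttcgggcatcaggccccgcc
Isg15 holds 3 overlapping matches from base -78 to base -57, counted from the start, and Ifit1 holds 2 separate ones. In Bst2 the gamma-activated sequence overlaps the first of 2 overlapping response elements. Gbp7 holds 2 gamma-activated sequences and a response element closer to the start, and in Igtp the gamma-activated sequence lies 2 bases before the response element. A match is a run of letters and not a measured binding site, and the FoxO core of Rsad2 runs from base -212 to base -206, outside the stretch printed.

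**Figure D3:**
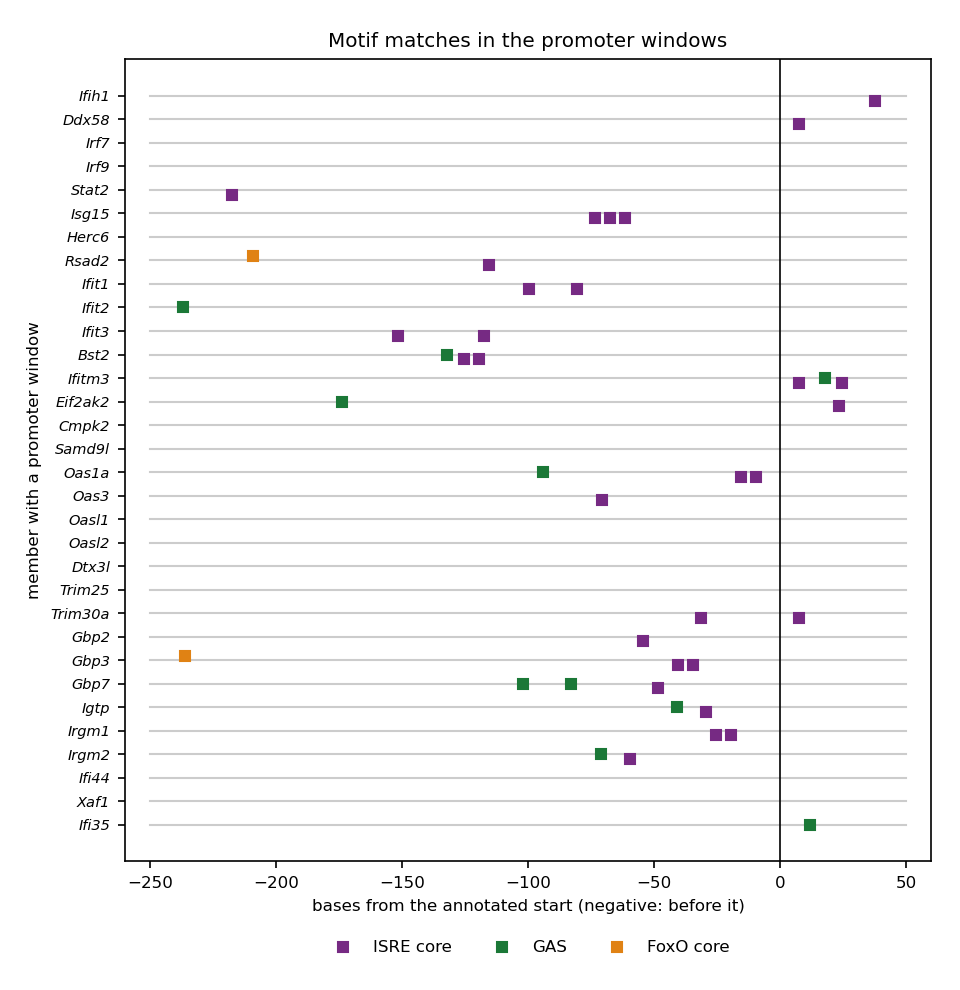
Position of each motif match (x axis, bases from the annotated start) in the promoter windows of the 32 members with an entry (y axis, grouped by role). Purple marks the interferon-stimulated response element (ISRE core), green the gamma-activated sequence (GAS) and orange the FoxO core; matches of the first kind were found in 19 members, in 15 of them before the start.

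Among the 4 sensors, Ifih1 and Ddx58 bind viral double-stranded RNA, Dhx58 modulates them and Zbp1 binds Z-form nucleic acid. All 4 had lower means in knockout mice in both pads, with a median log2 fold change of -0.42 in gonadal and -0.33 in inguinal fat. Zbp1 (chr2:173206612-173218923, minus strand) was at 6.09, 4.84 and 3.04 FPKM in knockout gonadal pads, against 15.02, 7.31 and 7.16 FPKM in control pads. The gonadal groups did not overlap. In inguinal fat Zbp1 was at 2.69, 1.35 and 4.43 FPKM in the knockouts, against 7.48, 2.52 and 3.81 FPKM in the controls, where knockout mouse M12 lay above controls M7 and M10. Zbp1 had a log2 fold change of -0.97 (SE 0.35) in gonadal fat (limma adjusted p = 0.537) and -0.61 (SE 0.48) in inguinal fat (limma adjusted p = 0.617). Ifih1, Ddx58 and Dhx58 ranged from 2.65 to 13.0 FPKM over the 12 pads, with log2 fold changes of -0.45 to -0.23.

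The factors that carry the response are Irf7, which amplifies type I interferon production, and Irf9 and Stat2 of the complex named above. Irf7 (chr7:141262706-141266481, minus strand) was at 16.3, 10.96 and 10.4 FPKM in knockout gonadal pads, against 67.5, 19.3 and 19.5 FPKM in control pads. The gonadal groups did not overlap, and M6 stood far above every other pad. In inguinal fat Irf7 was at 13.7, 8.46 and 17.6 FPKM in the knockouts, against 43.8, 13.6 and 18.4 FPKM in the controls, and knockout mice M5 and M12 lay above control mouse M7. Its log2 fold change was -1.23 (SE 0.51) in the gonadal pad and -0.79 (SE 0.47) in the inguinal pad, with a limma adjusted p of 0.576 in the gonadal pad and 0.503 in the inguinal pad. Of all 42 genes Irf7 followed the mean of the group most closely over the 12 pads (r = 0.99 after subtraction of each depot's mean), a description only, since the pads of a mouse are not independent.

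Stat2 (chr10:128270576-128292849, plus strand) was at 8.13, 6.92 and 7.38 FPKM in knockout gonadal pads, against 15.2, 8.38 and 10.1 FPKM in control pads, and the groups did not overlap. Its inguinal values were 6.37, 4.34 and 8.41 FPKM in knockout mice and 13.3, 6.89 and 8.25 FPKM in control mice, where M12 lay above M7 and M10. Stat2 had a log2 fold change of -0.52 (SE 0.22) in gonadal fat (limma adjusted p = 0.576) and -0.53 (SE 0.31) in inguinal fat (limma adjusted p = 0.4896). Irf9 (chr14:55603571-55610030, plus strand) was at 10.99, 7.89 and 8.91 FPKM in knockout gonadal pads, against 16.6, 10.7 and 12.6 FPKM in control pads, and knockout mouse M5 lay just above control mouse M7. Inguinal Irf9 was at 7.82, 4.16 and 8.99 FPKM in the knockouts, against 13.6, 7.05 and 9.18 FPKM in the controls, with the groups overlapping. The log2 fold changes of Irf9 were -0.49 (SE 0.19) in the gonadal pad and -0.50 (SE 0.34) in the inguinal pad, with a limma adjusted p of 0.552 in the gonadal pad and 0.557 in the inguinal pad. Irf9 overlaps Rnf31 by 123 bases on the same strand, and reads there may have been shared.

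The ISG15 system consists of Isg15, a ubiquitin-like protein that is attached to other proteins, Usp18, the protease that removes it and also blocks Ifnar2 signalling, and Herc6, the ligase that attaches it in mice. Isg15 (chr4:156199424-156200818, minus strand) had the lowest fold change of the 42 genes in both pads. Its level was 15.6, 10.9 and 9.29 FPKM in knockout gonadal pads, against 68.8, 21.8 and 29.1 FPKM in control pads. All knockout values lay below all control values, at 29.9% of the control mean (11.9 ± 3.27 FPKM in knockout mice and 39.9 ± 25.3 FPKM in control mice, SD, n = 3 each). In inguinal fat Isg15 was at 9.71, 7.64 and 15.4 FPKM in the knockouts, against 48.4, 14.7 and 26.8 FPKM in the controls, or 36.4% of the control mean, and knockout mouse M12 lay just above control mouse M7. Isg15 had a log2 fold change of -1.56 (SE 0.44) in gonadal fat (limma adjusted p = 0.458) and -1.32 (SE 0.46) in inguinal fat (limma adjusted p = 0.276).

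Usp18 (chr6:121245906-121270916, plus strand) was at 2.303, 2.26 and 1.78 FPKM in knockout gonadal pads, against 6.27, 3.06 and 3.77 FPKM in control pads, with no overlap of the groups. Inguinal Usp18 was at 5.08, 2.63 and 6.69 FPKM in the knockouts, against 9.42, 4.04 and 5.31 FPKM in the controls, where the groups overlapped widely. Its log2 fold change was -0.85 (SE 0.25) in gonadal fat (limma adjusted p = 0.461) and -0.35 (SE 0.40) in inguinal fat (limma adjusted p = 0.745). Herc6 was at 2.26 to 2.52 FPKM in knockout and 2.63 to 4.82 FPKM in control gonadal pads, and at 1.68 to 2.55 FPKM in knockout and 2.2 to 4.21 FPKM in control inguinal pads.

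**Figure D4:**
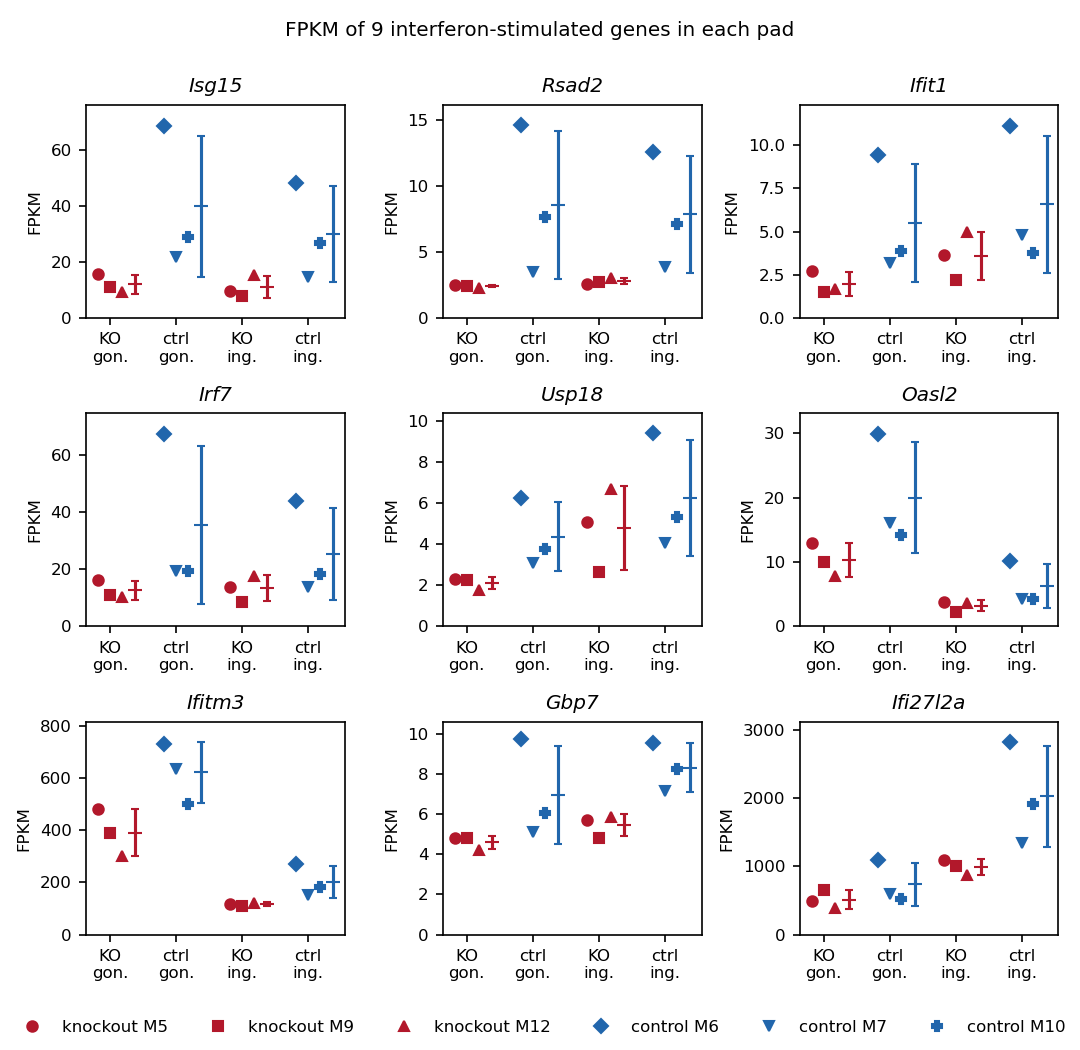
FPKM (y axis) of 9 of the 42 genes in the gonadal (gon.) and inguinal (ing.) pads of knockout (KO, red) and control (ctrl, blue) mice (x axis); each marker is a mouse, the mean of 2 libraries, and bars give the group mean ± SD (n = 3). Control mouse M6 (blue diamond) is the highest pad of its depot in every panel, and Rsad2, Oasl2, Ifitm3 and Gbp7 have separate groups in both pads.

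The IFIT proteins bind foreign RNA, Rsad2 (viperin) makes a nucleotide that stops viral RNA synthesis, and its neighbour Cmpk2 is a nucleotide kinase. All 10 genes of this antiviral group had lower means in knockout mice in both pads, with a median log2 fold change of -0.63 in gonadal and -0.49 in inguinal fat. Rsad2 (chr12:26442753-26456452, minus strand) was at 2.48, 2.42 and 2.29 FPKM in knockout gonadal pads, against 14.6, 3.44 and 7.62 FPKM in control pads. Inguinal Rsad2 was at 2.56, 2.72 and 3.05 FPKM in the knockouts, against 12.6, 3.82 and 7.12 FPKM in the controls. The groups were separate in both pads, the knockout mice lay close together, and the control mice spread over a wide range. Its log2 fold change was -1.44 (SE 0.46) in gonadal fat (limma adjusted p = 0.495) and -1.21 (SE 0.39) in inguinal fat (limma adjusted p = 0.244).

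Ifit1 (chr19:34640871-34650009, plus strand) was at 2.74, 1.47 and 1.64 FPKM in knockout gonadal pads, against 9.45, 3.18 and 3.87 FPKM in control pads, with separate groups. In the inguinal pad it was at 3.63, 2.17 and 4.96 FPKM in the knockouts, against 11.2, 4.79 and 3.78 FPKM in the controls, and M12 lay above M7 and M10. Ifit1 had a log2 fold change of -1.19 (SE 0.41) in gonadal fat (limma adjusted p = 0.52) and -0.71 (SE 0.44) in inguinal fat (limma adjusted p = 0.516). Ifit3 (chr19:34583531-34588731, plus strand) was at 7.21, 8.47 and 7.33 FPKM in knockout gonadal pads, against 28.3, 8.77 and 10.1 FPKM in control pads, and the groups were separate by a small margin. Its inguinal level was 12.9, 15 and 18.6 FPKM in the knockouts, against 37.8, 19.02 and 16.8 FPKM in the controls, with M12 above M10. Ifit3 had a log2 fold change of -0.80 (SE 0.43) in gonadal fat (limma adjusted p = 0.678) and -0.57 (SE 0.32) in inguinal fat (limma adjusted p = 0.474). Ifit2, of the same cluster on chromosome 19, was at 2.04 to 2.61 FPKM in knockout and 2.25 to 6.43 FPKM in control gonadal pads. Ifit3 has a near-identical copy, listed as I830012O16Rik, so how reads were split between the 2 is uncertain.

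Bst2 (tetherin) holds budding virus at the cell surface, and Ifitm3 blocks the fusion of viruses in endosomes. Bst2 (chr8:71534264-71537437, minus strand) was at 104, 88.7 and 70.8 FPKM in knockout gonadal pads, against 214, 119 and 116 FPKM in control pads. Its inguinal values were 68.7, 58.7 and 87.5 FPKM in knockout mice and 180.0, 77.8 and 112 FPKM in control mice. The gonadal groups were separate, and in inguinal fat M12 lay above M7. Bst2 had a log2 fold change of -0.73 (SE 0.28) in gonadal fat (limma adjusted p = 0.549) and -0.72 (SE 0.32) in inguinal fat (limma adjusted p = 0.373).

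Ifitm3 (chr7:141009586-141010770, minus strand) was at 480.5, 388 and 301 FPKM in knockout gonadal pads, against 730.2, 635 and 499 FPKM in control pads. In inguinal fat it was at 117, 109 and 122 FPKM in the knockouts, against 272, 151 and 182 FPKM in the controls. The groups were separate in both pads. Its log2 fold change was -0.68 (SE 0.22) in gonadal fat (limma adjusted p = 0.505) and -0.75 (SE 0.21) in inguinal fat (limma adjusted p = 0.217). The related Ifitm2 was at 644, 589.7 and 450.4 FPKM in knockout gonadal pads, against 607, 811 and 624 FPKM in control pads, and reads of the 2 paralogs may have been shared.

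Mx2, a dynamin-like GTPase, was at 0.3397, 0.424 and 0.458 FPKM in knockout gonadal pads, against 1.31, 0.699 and 0.492 FPKM in control pads, with separate groups. Inguinal Mx2 was at 0.824, 0.393 and 1.22 FPKM in the knockouts, against 1.19, 0.534 and 0.742 FPKM in the controls, where M12 was the highest of the 6. Eif2ak2 (PKR), which halts translation on double-stranded RNA, Cmpk2 and Samd9l, which restricts viral translation, lay between 2.44 and 15.1 FPKM in all pads. Their log2 fold changes were -0.52 to -0.31 in gonadal and -0.41 to -0.19 in inguinal fat.

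The OAS family makes 2'-5' oligoadenylate in answer to double-stranded RNA, although the 2 OAS-like members differ in this: Oasl2 is active as an enzyme and Oasl1 is not. All 5 had lower means in knockout mice in both pads, with a median log2 fold change of -0.82 in gonadal and -0.77 in inguinal fat. Oasl2 (chr5:114896936-114912234, plus strand) was at 13, 10.01 and 7.85 FPKM in knockout gonadal pads, against 29.9, 15.98 and 14.2 FPKM in control pads. Inguinal Oasl2 was at 3.76, 2.25 and 3.59 FPKM in the knockouts, against 10.2, 4.22 and 4.18 FPKM in the controls. The groups were separate in both pads. Its log2 fold change was -0.88 (SE 0.32) in gonadal fat (limma adjusted p = 0.533) and -0.77 (SE 0.37) in inguinal fat (limma adjusted p = 0.409).

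Oasl1 was at 2.73, 2.46 and 1.78 FPKM in knockout gonadal pads, against 5.93, 3.83 and 3.35 FPKM in control pads, with separate groups and a log2 fold change of -0.77 (SE 0.23) (limma adjusted p = 0.477). Oas3 was at 0.713, 0.487 and 0.306 FPKM in knockout gonadal pads, against 2.44, 1.17 and 1.05 FPKM in control pads, likewise separate, with a log2 fold change of -0.99 (SE 0.31) (limma adjusted p = 0.482). Both were among the 5 members with the smallest gonadal p. Inguinal Oas3 was low, at 0.439, 0.0846 and 0.857 FPKM in the knockouts, against 1.24, 0.149 and 0.592 FPKM in the controls, and its groups overlapped. Oas1a was at 11.04, 5.91 and 5.36 FPKM in knockout gonadal pads, against 15.9, 11.8 and 9.47 FPKM in control pads, where M5 lay above M10. Inguinal Oas1a was at 2.41, 1.43 and 2.76 FPKM in the knockouts, against 6.42, 2.93 and 3.31 FPKM in the controls, with separate groups. Oas2 was at 1.76 to 2.25 FPKM in knockout and 2.57 to 6.54 FPKM in control gonadal pads, and at 0.572 to 1.79 FPKM in knockout and 1.58 to 3.43 FPKM in control inguinal pads. Oas1a belongs to a cluster of near-identical genes, so its reads may be split among them.

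The PARP and TRIM members had the smallest differences by the median of their role. Parp9 and Dtx3l form a ubiquitin ligase complex, Parp14 is a mono-ADP-ribosyltransferase, Trim25 activates the sensor encoded by Ddx58, and Trim30a dampens inflammatory signalling. Their median log2 fold change was -0.22 in gonadal and -0.28 in inguinal fat. Trim30a was the one of the 5 with separate gonadal groups, at 8.12, 7.72 and 6.49 FPKM in knockout gonadal pads, against 13.8, 9.41 and 10.3 FPKM in control pads, and had a log2 fold change of -0.54 (SE 0.16) (limma adjusted p = 0.464). Gonadal Parp9, Parp14 and Trim25 had log2 fold changes of -0.22 (SE 0.16), -0.49 (SE 0.20) and -0.22 (SE 0.11), with overlapping groups. Dtx3l was at 7.66, 6.71 and 6.28 FPKM in knockout gonadal pads, against 10.4, 6.78 and 7.27 FPKM in control pads. In inguinal fat it was at 8.61, 6.79 and 8.66 FPKM in the knockouts, against 10.1, 6.29 and 7.88 FPKM in the controls, with a log2 fold change of 0.00 (SE 0.19), and the groups overlapped in both pads. Parp9 and Dtx3l overlap on opposite strands by 682 bases, and as the strand setting of the counting is not given, shared reads cannot be told apart.

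The 7 GTPases of the interferon gamma response act on the membranes of vacuoles that hold bacteria or parasites. All had lower means in knockout mice in both pads, with a median log2 fold change of -0.69 in gonadal and -0.49 in inguinal fat. Of the 42 genes, Gbp7 had the smallest p in inguinal fat. Gonadal Gbp7 (chr3:142530338-142550083, plus strand) was at 4.78, 4.79 and 4.23 FPKM in knockout gonadal pads, against 9.71, 5.08 and 6.07 FPKM in control pads. Inguinal Gbp7 was at 5.704, 4.81 and 5.83 FPKM in the knockouts, against 9.55, 7.12 and 8.25 FPKM in the controls. The groups were separate in both pads, by a wider margin in inguinal fat. The log2 fold change of Gbp7 was -0.50 (SE 0.23) in gonadal fat (limma adjusted p = 0.613) and -0.56 (SE 0.14) in inguinal fat (limma adjusted p = 0.173).

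Gbp2 (chr3:142620602-142638008, plus strand) was at 27.4, 29.2 and 22.3 FPKM in knockout gonadal pads, against 68.8, 30.98 and 29.4 FPKM in control pads, with M9 and M10 nearly level. Its inguinal values were 20.4, 24.5 and 23.7 FPKM in knockout mice and 45.9, 26.1 and 28.02 FPKM in control mice, also separate. Gbp2 had a log2 fold change of -0.60 (SE 0.34) in gonadal fat (limma adjusted p = 0.697) and -0.49 (SE 0.22) in inguinal fat (limma adjusted p = 0.378). Iigp1, which loads onto the vacuoles of parasites, was at 5.85, 5.35 and 4.33 FPKM in knockout gonadal pads, against 27.7, 7.12 and 8.52 FPKM in control pads. Inguinal Iigp1 was at 6.66, 6.41 and 8.54 FPKM in the knockouts, against 18.5, 10.8 and 9.53 FPKM in the controls. Its groups were separate in both pads, with M6 far above the other controls. Iigp1 had a log2 fold change of -1.14 (SE 0.50) in gonadal fat (limma adjusted p = 0.595) and -0.76 (SE 0.26) in inguinal fat (limma adjusted p = 0.269).

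Igtp (chr11:58199556-58207591, plus strand), which together with Irgm1 and Irgm2 regulates the other GTPases, was at 8.01, 6.996 and 5.99 FPKM in knockout gonadal pads, against 21.2, 8.38 and 8.41 FPKM in control pads, with separate groups. Inguinal Igtp was at 11.1, 7.05 and 10.6 FPKM in the knockouts, against 16.4, 9.91 and 12.8 FPKM in the controls, where M5 and M12 lay above M7. Igtp had a log2 fold change of -0.69 (SE 0.37) in gonadal fat (limma adjusted p = 0.675) and -0.42 (SE 0.24) in inguinal fat (limma adjusted p = 0.475). Irgm2 was at 9.76, 7.45 and 6.97 FPKM in knockout gonadal pads, against 22.8, 11.3 and 11.5 FPKM in control pads, and Irgm1 and Gbp3 lay between 4.31 and 31.6 FPKM over all pads. Igtp and Irgm2 overlap over 7974 bases on the same strand, as do Gbp5 and both Gbp3 and Gbp7, so their counts may share reads.

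The remaining 5 genes are interferon-induced with varied roles: Xaf1 promotes apoptosis, Rtp4 is a receptor chaperone, Ifi27l2a is a small protein of mitochondria and the nuclear envelope, and Ifi35 and Ifi44 are induced proteins with less settled roles. Ifi27l2a (chr12:103442167-103443680, minus strand) was at 493, 655 and 388 FPKM in knockout gonadal pads, against 1094, 590.4 and 519 FPKM in control pads, where M9 lay above M7 and M10. Inguinal Ifi27l2a was at 1098, 1011 and 870.3 FPKM in the knockouts, against 2824, 1348 and 1910.0 FPKM in the controls, with separate groups. Its log2 fold change was -0.47 (SE 0.34) in gonadal fat (limma adjusted p = 0.765) and -0.97 (SE 0.29) in inguinal fat (limma adjusted p = 0.231). Ifi35 was at 11.3, 9.74 and 12.7 FPKM in knockout inguinal pads, against 19.5, 13.8 and 15.7 FPKM in control pads, with separate groups and a log2 fold change of -0.51 (SE 0.16) (limma adjusted p = 0.234). Rtp4 was at 10.5, 6.896 and 5.67 FPKM in knockout gonadal pads, against 26.5, 12.2 and 12.8 FPKM in control pads, with separate groups and a log2 fold change of -1.06 (SE 0.36) (limma adjusted p = 0.512). Ifi44 was at 0.38 to 2.93 FPKM and Xaf1 at 3.06 to 9.64 FPKM over the 12 pads.

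**Figure D5:**
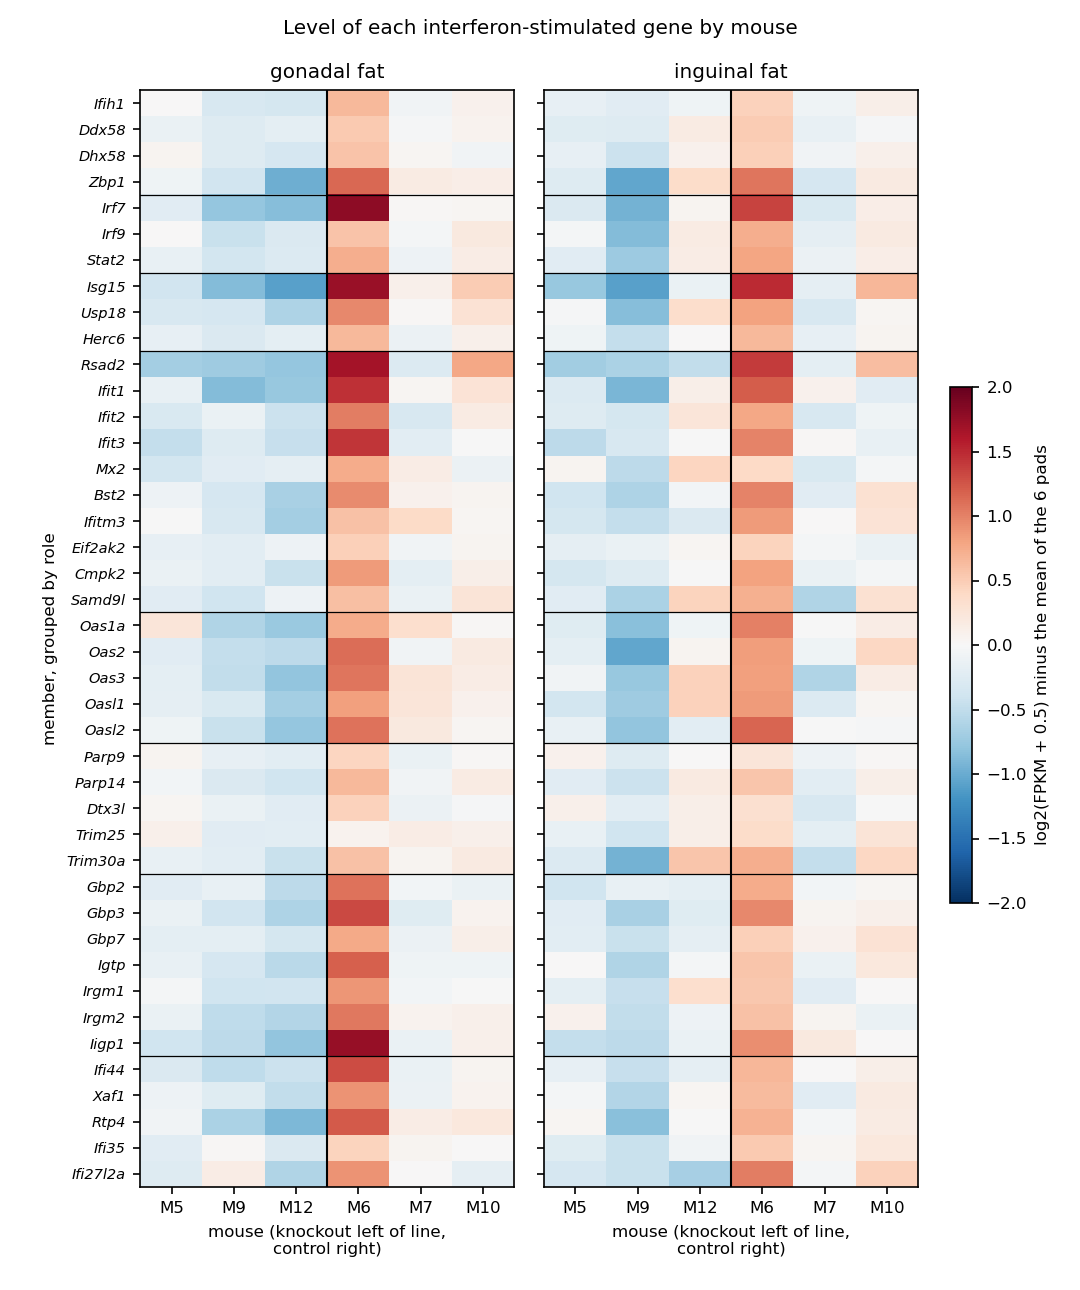
Level of each of the 42 genes (rows, grouped by role) in each mouse (columns, knockout left of the line and control right of it), as log2(FPKM + 0.5) minus the mean of the 6 pads of that depot. Control mouse M6 is the highest pad for 41 of 42 genes in each depot, and the lowest is most often knockout M12 in gonadal (30 genes) and knockout M9 in inguinal fat (35 genes).

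The knockout effect was compared between the pads with an interaction term over all 12 pads. By limma 0 of the 42 genes were called (0% of all 14577 genes called), and at an unadjusted p under 0.05 also 0, with 0 by edgeR and 0 by DESeq2. The gonadal log2 fold change was lower than the inguinal one for 34 of 42 genes, against 33.6% of all genes, with a median difference of -0.16 against 0.08 over all genes. Without both pads of M12, this was so for 19 of 42 genes. The median difference was then 0.026, against 0.107 over all genes. In each pad fitted alone, the members' median without M12 was -0.533 in gonadal and -0.604 in inguinal fat. With M12 these were -0.59 and -0.468. With all 3 gonadal pads that held epididymal transcripts left out, it was so for 5 of 42 genes, and the median difference was 0.249, against 0.113 over all genes. With the inguinal pads that held B cell transcripts left out, it was so for 35 of 42, and the median was -0.262, against 0.047 over all genes. Neither fit called a member by limma (0 at an unadjusted p under 0.05 in each), and both were chosen after seeing the data. Oas3 had the lowest difference at -0.75 (SE 0.59) and Ifi27l2a the highest at 0.50 (SE 0.47) (limma adjusted p = 1.0 for each). Irgm2, Mx2 and Rtp4 were at -0.47 (SE 0.40), -0.48 (SE 0.42) and -0.52 (SE 0.50).

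The pads were also set against each other within a genotype. In knockout mice 4 of 41 genes tested were called higher in gonadal fat, against 35.1% of all 14593 genes, and 4 lower, against 12.7%. Ifitm3, Oasl2, Oas1a and Trim25 were higher, at log2 fold changes of 1.72 (SE 0.18), 1.54 (SE 0.24), 1.52 (SE 0.32) and 0.84 (SE 0.16). Ifit3, Ifi27l2a, Cmpk2 and Usp18 were lower, at -0.96 (SE 0.15), -0.98 (SE 0.21), -0.58 (SE 0.14) and -0.94 (SE 0.31). The limma adjusted p was 0.000955 for Ifitm3 and 0.00344 for Ifit3. Without M5 only Ifit3, Oasl2 and Ifitm3 were called, and 20.6% of all genes. With gonadal pads that held epididymal transcripts left out, 7 of 42 were called, against 45% of all genes, and with inguinal pads that held B cell transcripts left out, 10 of 40, against 33%. That fit has M9 as its one inguinal pad, assumed to vary like the gonadal ones. The scaling matters here: centring each pad on its median gene gave a median of all genes of -0.140, against 0.269 as deposited, with 4 members called higher, against 15.1% of all genes, and 19 lower, against 27.6%. Relative to the median of all genes, the members' median was -0.298 in knockout and 0.019 in control mice under either scaling. Macrophage markers summed to 6563 to 13130 FPKM over the gonadal and 313 to 1389 FPKM over the inguinal pads, and the part of these in the depot values was not tested.

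In control mice 5 of the 42 were called higher in gonadal than in inguinal fat, against 26.9% of all 14505 genes called higher, and 1 was called lower, against 14.5%. The 5 higher ones were Ifitm3, Oasl2, Oas1a, Oasl1 and Trim25, and the lower one was Ifi27l2a. Ifitm3 averaged 621 ± 116 FPKM in gonadal and 201 ± 62.5 FPKM in inguinal fat of control mice (SD, n = 3 each), with a log2 fold change of 1.65 (SE 0.26) (limma adjusted p = 0.00402). Oasl1 differed by 1.05 (SE 0.34) (limma adjusted p = 0.0481). Oasl2 differed by 1.65 (SE 0.41) (limma adjusted p = 0.0213), Oas1a by 1.49 (SE 0.31) (limma adjusted p = 0.0114) and Trim25 by 0.78 (SE 0.16) (limma adjusted p = 0.0103). Ifi27l2a averaged 735 ± 313.5 FPKM in gonadal and 2027 ± 745 FPKM in inguinal fat of control mice (SD, n = 3 each), with a log2 fold change of -1.48 (SE 0.39) (limma adjusted p = 0.0254). With the mouse as a replicate block, which pairs the pads of an animal, 14 of 42 were called, 10 higher and 4 lower, a share near the 35.1% of all genes called in that fit. Without M7 only Ifitm3 and Trim25 were called, against 28.7% of all genes. Without M10 0 were called by limma (4 at an unadjusted p under 0.05), against 10.8% of all genes. With M7 as the one gonadal pad, that without epididymal transcripts, 0 were called by limma (5 at an unadjusted p under 0.05), against 16.8% of all genes. With M7 as the one inguinal pad, that without B cell transcripts, 6 were called, against 39.8%, and in both fits the lone pad is assumed to vary like the others.

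Upstream in the pathway, no gene of the ligands, receptors or kinases was called between the genotypes. Of 12 interferon genes 0 passed the filter in gonadal or inguinal fat, and those listed above 0 in any pad were Ifna4, Ifnab, Ifnk and Ifng. Ifng was highest in M6, at 0.437 FPKM in gonadal and 0.412 FPKM in inguinal fat, and at 0 to 0.107 FPKM in the other pads. All 6 receptor genes were tested in gonadal fat and 0 were called by limma (0 also at an unadjusted p under 0.05), with a median log2 fold change of -0.135. In gonadal fat Ifnar1 was at 34.6, 28.6 and 27.3 FPKM in knockout mice and 27.1, 36.5 and 35.1 FPKM in control mice. Gonadal Ifnar2 was at 28.5, 24.8 and 22.02 FPKM in knockout mice and 28.6, 28.8 and 26.2 FPKM in control mice. The groups overlapped for both chains of the type I receptor. Gonadal Ifngr1 was at 90.4, 76.1 and 68.3 FPKM in knockout mice and 87.3, 83.9 and 93.4 FPKM in control mice. Gonadal Ifngr2 was at 40.8, 31.7 and 29.2 FPKM in knockout mice and 32.1, 45.4 and 36 FPKM in control mice, and both overlapped as well. Il10rb, shared with the lambda interferon receptor, had a gonadal log2 fold change of -0.10 (SE 0.17), and Ifnlr1 stayed below 1 FPKM in every pad.

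In inguinal fat 5 receptor genes were tested and 0 called. Of these 1, Ifngr1, was lower at an unadjusted p under 0.05, against 11.6% of all genes. Inguinal Ifngr1 was at 65.9, 57.5 and 54.04 FPKM in the knockouts, against 82.5, 69.1 and 73.8 FPKM in the controls, with separate groups and a log2 fold change of -0.34 (SE 0.11) (limma adjusted p = 0.238). Ifngr2 differed by -0.31 (SE 0.17), Il10rb by -0.22 (SE 0.13), Ifnar1 by -0.11 (SE 0.09) and Ifnar2 by 0.02 (SE 0.06), with overlapping groups. Between the pads, 5 of 5 receptor genes in knockout mice were called higher in gonadal fat, against 35.1% of all genes. In control mice 4 of 5 were called higher, against 26.9% of all genes. These counts are on the deposited scale, without the centring described above. The highest value was that of Ifngr2, at 1.53 (SE 0.15) in knockout and 1.37 (SE 0.20) in control mice.

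Of 10 kinases, STATs and brakes of the pathway 0 were called in either pad. At an unadjusted p under 0.05, 3 were lower in gonadal fat, against 4.3% of all genes, and 0 in inguinal fat, against 11.6%. Jak1, Jak2 and Stat3 had the smallest gonadal p, at log2 fold changes of -0.23 (SE 0.08), -0.28 (SE 0.11) and -0.27 (SE 0.10). Stat3, Socs3 and Socs1 had the smallest inguinal p, at -0.15 (SE 0.10), -0.47 (SE 0.35) and -0.55 (SE 0.47).

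Of 17 genes that induce interferon, such as the Toll-like receptors and Mavs, 0 of 17 tested in gonadal and 0 of 16 tested in inguinal fat were called. At an unadjusted p under 0.05 only Tlr7 was lower in gonadal fat, at -0.35 (SE 0.14), against 4.3% of all genes. Irf2 and Tlr4 were next at -0.31 (SE 0.13) and -0.27 (SE 0.12). Tlr4, Tbk1 and Irf3 had the smallest inguinal p, at -0.24 (SE 0.13), 0.17 (SE 0.10) and -0.25 (SE 0.21).

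A list, also chosen with earlier results of these data known, held 48 further interferon-induced genes. Of 47 tested in each pad, 45 had a log2 fold change below 0 in gonadal fat, against 55.8% of all genes. In inguinal fat 45 were below 0, against 70.6% of all genes. The median was -0.42 in gonadal and -0.31 in inguinal fat, and 0 were called by limma in either. At an unadjusted p under 0.05, 9 were lower in gonadal fat, against 4.3% of all genes. In inguinal fat 8 were lower, against 11.6% of all genes, and 1 was higher, against 448 of all 13621 genes. The smallest gonadal p belonged to Slfn1, Ube2l6 and Lgals9, at log2 fold changes of -0.89 (SE 0.21), -1.05 (SE 0.31) and -0.60 (SE 0.18). Ube2l6, the conjugating enzyme of the ISG15 system, was at 29.8, 34.05 and 25.7 FPKM in knockout gonadal pads, against 102, 45.5 and 51.7 FPKM in control pads. Inguinal Ube2l6 was at 18.4, 15.1 and 19.9 FPKM in the knockouts, against 65.3, 21.6 and 46.3 FPKM in the controls, and its groups were separate in both pads. Ifi204, Phf11d and Lgals9 had the smallest inguinal p, at -0.98 (SE 0.22), -0.65 (SE 0.15) and -0.89 (SE 0.24). Cd274, which encodes the checkpoint ligand PD-L1, was chosen after its values were seen. Inguinal Cd274 was at 9.45, 11.97 and 10.8 FPKM in the knockouts, against 7.54, 8.69 and 7.38 FPKM in the controls, all knockout mice above all control mice, with a log2 fold change of 0.42 (SE 0.12) (limma adjusted p = 0.208).

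Outside the 42 genes, the 10 whose pattern was most like their mean level over the 12 pads, after subtraction of each depot's mean, included Gm12250, Gbp5, H2-Q4, Lgals3bp, Aida, Parp12, Siglec1, Trim21 and Aoah, with Pearson r of 0.942 to 0.98 among 14535 genes. These 10 included 5 from the lists of pathway genes. The 42 genes themselves followed their mean at r = 0.74 (Trim25) to 0.99 (Irf7), with a median of 0.95. The points share mice and libraries, and M6 lies at the top of both depots, so these values are a description.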

How the data were processed

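RNA of 12 fat pads was measured by RNA-seq in 24 libraries of total RNA. Per the submitters' processing notes, CASAVA, STAR and the build mm10 were used; how reads were counted, and whether by strand, is not stated in the labels or file headers. The deposited table gives FPKM per gene and library, per the file headers. For genes listed as changed, the authors' deposited tables add read counts, the group mean signal (counts divided by size factors), a log2 fold change, and a p-value and adjusted p-value, per the file headers. In the library names z was read as knockout, f as floxed control, e as epididymal and s as subcutaneous; columns were mapped to groups, not to single samples, and the animal numbers were inferred from the names.

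Both libraries of each mouse and pad were averaged; 24 further FPKM columns of the comparison tables were not used. The main test was limma 3.58.1 (R 4.3.3) with an intensity trend on log2(FPKM + 0.5), over genes whose mean FPKM in the fit reached 0.5, with Benjamini-Hochberg adjustment over all genes and a threshold of 0.05. Fold changes on this scale understate the change of low genes. Whole reads were rebuilt from FPKM for 100% of the values (tolerance 0.001) and tested with edgeR 4.0.16 and DESeq2 1.42.0 as alternatives. The scripts were tested on simulated data. The reads assigned to genes, 14953657 to 25438811 per library, were inferred from the deposited read counts and FPKM of genes with at least 50 reads. No molecular identifiers are named, so counting precision is not given per value.

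The members and all lists were chosen with earlier results of these data known. Named with values were Foxo1, 16 members covering all roles, the 5 members with the smallest p and the largest change each way in each comparison, every receptor, up to 3 genes with the smallest p per pathway list, and the 10 genes most like the members' mean. Other members are given by ranges, counts or values in passing. Genotypes were compared between different mice. The pads of an animal number come from 1 mouse, which pairs the depot comparisons and the difference between pads; deviations of the pads of a mouse correlated at r = -0.095 (M12) to 0.136 (M5) over all genes and at -0.045 (M12) to 0.601 (M6) over the 42. Alternatives were other pseudocounts, filters and scalings, each library as a replicate, each mouse left out, the mouse as a block, and pads split by foreign transcripts.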

Additional observations from a re-analysis of the deposited data

How the results depend on the processing

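The count of members called between the genotypes was 0 in each pad by limma under other pseudocounts, filters and scaling, by edgeR and without any 1 mouse (range 0 to 0), but 14 (gonadal) and 11 (inguinal) with each library as a replicate and 2 and 5 by DESeq2. The members' median log2 fold change ranged from -0.757 to -0.29 in gonadal and from -0.649 to -0.228 in inguinal fat when 1 mouse was left out, and was -0.175 in the gonadal pads without epididymal transcripts; which of their differences moved it was not tested. Members with the other sign than in the reported fit were few: in gonadal fat Ifit2, Parp9, Dtx3l and Cmpk2 without the epididymal pads (0.03 to 0.09); in inguinal fat Ifit2, Mx2, Irgm1 and Samd9l without M6, Oas3 and Mx2 without M9, Mx2 and Parp9 after centring and by DESeq2, Mx2 by edgeR and in the pads with lymphocyte transcripts. Dtx3l was 0.076 in gonadal fat without the epididymal pads, and in inguinal fat from -0.154 to 0.168 without 1 mouse (-0.048 without M5, -0.052 without M12, -0.154 without M7 and -0.002 without M10) and -0.045 in the pads with lymphocyte transcripts; the cause was not tested. The log2 fold change of Foxo1 passed the threshold with each library as a replicate (-1.178 in gonadal, -1.86 in inguinal fat) and by DESeq2 (-1.282 and -1.826), and without 1 mouse it ranged from -1.344 to -0.97 in gonadal and from -2.105 to -1.581 in inguinal fat.

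Between the depots, the members called in knockout mice numbered 23 after centring (42.7% of all genes called), 19 with each library as a replicate (67%), 16 by edgeR (41.8%), 21 by DESeq2 (48.6%) and 3 to 10 without 1 mouse (20.6% to 42.1%), against 8 (47.8%). In control mice they numbered 0 to 8 without 1 mouse (10.8% to 36.3%) and 0 without the epididymal pads (16.8%), against 6 (41.4%). With the mouse as a replicate block they numbered 6 in knockout (43.6%) and 14 in control mice (35.1%), and 0 in the difference of the knockout effect between pads, where 0 were called under every alternative run. There Rtp4 turned to 0.049 without the epididymal pads, and Ifi27l2a to -0.059 without the inguinal pads that held lymphocyte transcripts; the cause was not tested. Between the genotypes no paired analysis was possible because they are different mice and no library name carries a replicate number from the labels. The response element was in 15 members before the start, against 19 in the whole window.
With 3 mice a group, the spread between mice limits these comparisons: the members' median varied between mice by an SD of 0.375 in gonadal and 0.362 in inguinal fat on the log2 scale. Over the single named genes and the alternatives run for each, the direction and the side of the threshold held in 284 of the gonadal values, while 14 passed it in addition and 1 turned its direction. In inguinal fat these counts were 267, 13 and 5.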
